A study of Rattus norvegicus with 8 samples.

Results

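The genes described here are 7 rat genes of immature neurons and neurogenesis, *Sox11*, *Sox4*, *Dcx*, *Eomes*, *Neurod1*, *Igfbpl1* and *Draxin*, out of 22601 genes measured by RNA sequencing in the hippocampus. They were found by their NCBI GeneID, and all 7 were present in each of the 8 libraries. They were chosen by the expression of these same libraries, *Sox11* for its difference between the groups, so that their values are a description and no test of theirs is read as evidence. The rats were wild-type Wistar animals of 180 to 220 g, with 1 library per rat, and neither age nor sex was given in the sources used here. The Con. group (n = 3) received saline and then the solvent of Q808. The PTZ group (n = 3) received pentylenetetrazole (PTZ), a convulsant that blocks GABA-A receptors, at 35 mg/kg every 48 h over 28 days and 60 mg/kg on the last of these days, and then solvent for 28 days. The Q808 group (n = 2) received the same PTZ doses and then 30 mg/kg of the anticonvulsant compound Q808 by mouth each day for 28 days. Before the tissue was taken, rats of the PTZ and Q808 groups, and not those of the Con. group, received a further sub-convulsive PTZ injection.

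New granule neurons are made in the adult dentate gyrus from radial glia-like stem cells. These give rise to dividing intermediate progenitors that express the transcription factor *Eomes*, also called Tbr2, and then to neuroblasts and immature neurons that express the related transcription factors *Sox4* and *Sox11* and the microtubule-binding protein doublecortin, the product of *Dcx*. *Neurod1* encodes a basic helix-loop-helix factor needed for granule neurons to mature and survive, *Igfbpl1* encodes a secreted protein found in immature neurons, and *Draxin* encodes a secreted axon guidance protein that binds netrin receptors.

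Promoters are shown for *Sox11*, *Neurod1* and *Dcx*, because these genes gave 3 different patterns below. The 250 bases before the RefSeq start are printed from 5′ to 3′ on the gene's own strand, from build GRCr8, which is the build of the sequence table and not a statement about the deposited values. Capitals mark every match, on either strand, to the E-box CANNTG bound by factors such as Neurod1, the CCAAT box, the TATA box TATAAA, the AP-1 site TGANTCA, the cyclic AMP response element TGACGTCA and the SOX core ACAAAG. The *Sox11* stretch is chr6:49738795-49739044, the *Neurod1* stretch is chr3:84770455-84770704 and the *Dcx* stretch is chrX:112304162-112304411, each on the minus strand.
Sox11: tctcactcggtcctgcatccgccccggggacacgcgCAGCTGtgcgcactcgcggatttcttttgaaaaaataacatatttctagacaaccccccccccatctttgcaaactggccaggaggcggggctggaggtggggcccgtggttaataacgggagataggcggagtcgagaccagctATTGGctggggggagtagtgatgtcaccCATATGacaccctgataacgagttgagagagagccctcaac
Neurod1: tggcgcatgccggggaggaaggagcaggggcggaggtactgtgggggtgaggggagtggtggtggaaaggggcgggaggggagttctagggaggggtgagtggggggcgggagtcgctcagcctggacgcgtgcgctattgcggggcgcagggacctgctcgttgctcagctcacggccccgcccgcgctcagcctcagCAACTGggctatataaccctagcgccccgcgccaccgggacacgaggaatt
Dcx: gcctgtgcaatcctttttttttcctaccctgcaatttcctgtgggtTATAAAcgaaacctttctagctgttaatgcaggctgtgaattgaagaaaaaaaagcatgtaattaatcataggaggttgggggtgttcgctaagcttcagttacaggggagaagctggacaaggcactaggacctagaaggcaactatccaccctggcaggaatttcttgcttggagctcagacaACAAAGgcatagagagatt
The *Sox11* stretch held 2 E-boxes, starting at -214 and -41 from the start, and a CCAAT box at -69. The *Neurod1* stretch held 1 E-box, at -51. The *Dcx* stretch held a TATAAA match at -204 and a SOX core at -19. Of 33469 RefSeq promoter stretches of the same length, 65.5% held an E-box, 34.0% a CCAAT box, 16.3% a SOX core and 12.9% a TATAAA match, so that none of these matches was rare. AP-1 sites were in 6.34% and cyclic AMP response elements in 1.59% of all stretches, and neither was in those of *Sox11*, *Dcx*, *Eomes*, *Neurod1*, *Igfbpl1* or *Draxin*. The GC content of the stretch was 56.8% for *Sox11*, 69.2% for *Neurod1* and 44.0% for *Dcx*, against a median of 51.2% for all promoters. No motif overlapped another in the 3 printed stretches.

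The libraries did not all look like pure hippocampus. A list of 6 genes abundant in striatal neurons, such as *Drd2* and *Ppp1r1b*, had a mean log2(FPKM + 0.1) of 6.20 to 7.35 in Con.-3, PTZ-3 and Q808-1, and of 1.56 to 2.48 in the other 5 libraries. FPKM is the number of fragments per kilobase of transcript, scaled to the mapped fragments of the library. Con.-3, PTZ-3 and Q808-1 are called striatum-rich below, and Con.-1, Con.-2, PTZ-1, PTZ-2 and Q808-2 striatum-poor. The mean of 6 dentate granule cell markers was lower in the striatum-rich libraries, though not every marker was. *C1ql2* was at 3.23 to 5.09 FPKM there, against 50.6 to 96.7 FPKM in the striatum-poor libraries. *Calb1*, at 87.7 FPKM in Con.-3 and 111.9 FPKM in PTZ-3, was above the 66.7 to 87.0 FPKM of the striatum-poor libraries. Relative depth lay between 0.719 and 1 of the deepest library. Since the tissue was measured in bulk, fewer cells of a type and less RNA per cell cannot be told apart.

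**Figure D1:**
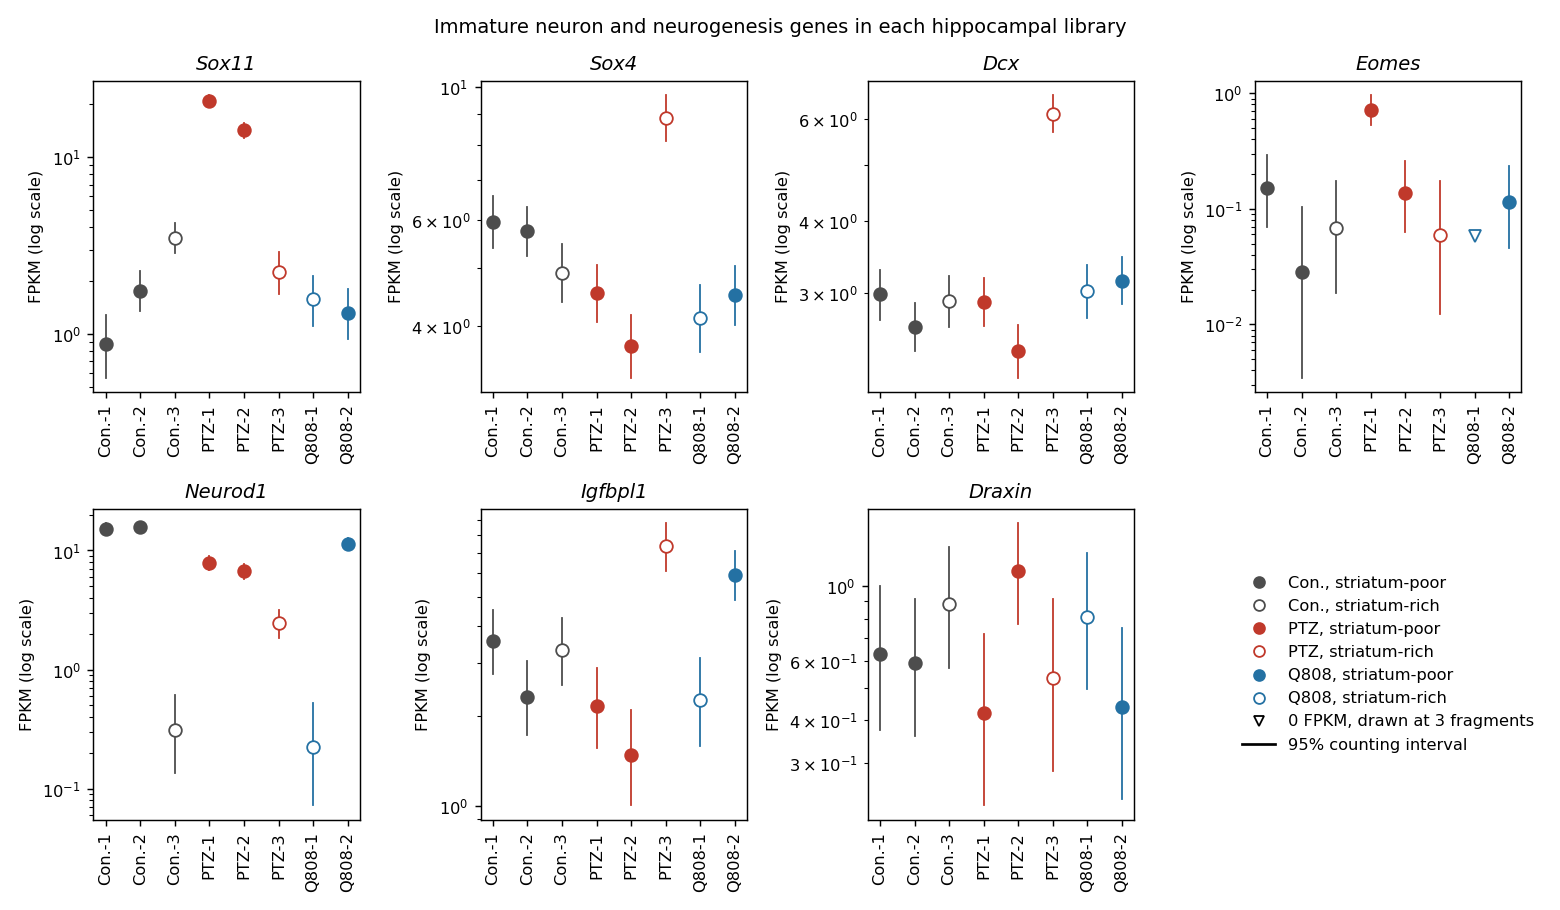
FPKM of the 7 genes in each library, on log axes that differ between panels, with points filled for striatum-poor and open for striatum-rich libraries. Vertical lines are 95% counting intervals. *Sox11* was highest in PTZ-1 and PTZ-2, *Neurod1* was lowest in Con.-3 and Q808-1, and *Sox4*, *Dcx* and *Igfbpl1* were highest in PTZ-3. The open triangle is *Eomes* in Q808-1, which is listed at 0 and drawn at the level of 3 fragments.

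Of the SoxC transcription factors, *Sox11* (GeneID 84046), which drives the expression of neuronal genes in immature neurons, was at 0.868, 1.76 and 3.50 FPKM in Con.-1, Con.-2 and Con.-3. It was at 20.9, 14.2 and 2.24 FPKM in PTZ-1, PTZ-2 and PTZ-3. It was at 1.56 and 1.31 FPKM in Q808-1 and Q808-2. PTZ-1 and PTZ-2 thus stood above all other libraries, while PTZ-3 lay inside the range of the Con. group and above both Q808 libraries. The values rested on 650 and 455 fragments in PTZ-1 and PTZ-2 and on 25 to 100 in the other 6 libraries, and the counting intervals of 19.3 to 22.5 and 13.0 to 15.6 FPKM did not meet those of any other library. The group means were 2.04 ± 1.34 FPKM in Con. (SD, n = 3), 12.4 ± 9.45 in PTZ (SD, n = 3) and 1.43 ± 0.181 in Q808 (SD, n = 2).

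On the log2(FPKM + 0.1) scale, *Sox11* was higher in PTZ than in Con. by 2.25 (SE 0.86), and lower in Q808 than in PTZ, with a log2 change of -2.54 (SE 0.90). Q808 differed from Con. by -0.29 (SE 0.57), less than its SE. Within the striatum-poor libraries the differences were larger and their errors smaller, at 3.69 (SE 0.37) between PTZ and Con. and -3.62 (SE 0.45) between Q808-2 and PTZ. There Q808-2, at 1.31 FPKM, lay between Con.-1 and Con.-2. Among the striatum-rich libraries, with 1 library a group and no test, PTZ-3 was below Con.-3 by -0.62, so that the *Sox11* rise was seen in PTZ-1 and PTZ-2 and not in PTZ-3.

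*Sox4* (GeneID 364712), the close relative of *Sox11* that acts in the same cells, did not follow it. It was at 5.97, 5.76 and 4.91 FPKM in Con.-1 to Con.-3, at 4.54, 3.71 and 8.88 FPKM in PTZ-1 to PTZ-3, and at 4.13 and 4.50 FPKM in Q808-1 and Q808-2. The lowest and the highest library were both PTZ libraries, with counting intervals of 3.28 to 4.17 and 8.12 to 9.68 FPKM. PTZ and Con. differed by -0.06 (SE 0.33) over all libraries and by -0.50 (SE 0.18) within the striatum-poor ones, where both PTZ libraries lay below both Con. libraries. There 38 of 53 other neurogenesis genes tested also had PTZ and Con. libraries that did not overlap. The share over all genes was not computed for these libraries, so nothing is read from the separation or from this count. Both Q808 libraries lay below the 3 Con. libraries, with a difference of -0.35 (SE 0.19).

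The marker of the intermediate progenitors, *Eomes* (GeneID 316052), was close to the limit of detection. It was at 0.153, 0.0286 and 0.0685 FPKM in Con.-1 to Con.-3, at 0.722, 0.138 and 0.0596 FPKM in PTZ-1 to PTZ-3, and at 0 and 0.115 FPKM in Q808-1 and Q808-2. PTZ-1 was highest with 46 fragments, and the other 7 libraries had 0 to 9 fragments, with counting intervals that all overlapped. Differences among those 7 rested on few fragments and were not tested between single libraries. In Q808-1 a count of 0 allows up to 0.0587 FPKM at the level of 3 fragments, and its exact 95% interval reaches 0.0722 FPKM. PTZ differed from Con. by 0.84 (SE 0.66) over all libraries and by 1.29 (SE 0.70) within the striatum-poor ones, and the group ranges overlapped in both.

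*Dcx* (GeneID 84394), the most used marker of neuroblasts and immature neurons, was nearly level in 7 of the libraries. It was at 2.98, 2.62 and 2.90 FPKM in Con.-1 to Con.-3, at 2.89, 2.38 and 6.13 FPKM in PTZ-1 to PTZ-3, and at 3.02 and 3.15 FPKM in Q808-1 and Q808-2. PTZ-3 was the highest library, at 5.69 to 6.60 FPKM by its counting interval, and PTZ-2 the lowest. Within the striatum-poor libraries PTZ and Con. differed by -0.09 (SE 0.21), and Q808-2 differed from PTZ by 0.26 (SE 0.26). *Dcx* therefore did not move with *Sox11* in PTZ-1 and PTZ-2, where *Sox11* was highest. Over the 8 libraries the Pearson correlation of *Dcx* with *Sox11* was -0.27, and that of *Dcx* with *Sox4* was 0.82. These correlations describe 8 points that share the striatum-rich and striatum-poor division.

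*Igfbpl1* (GeneID 366366) followed *Dcx* and *Sox4* in PTZ-3 and differed from them in Q808-2. It was at 3.54, 2.31 and 3.31 FPKM in Con.-1 to Con.-3, at 2.15, 1.48 and 7.36 FPKM in PTZ-1 to PTZ-3, and at 2.26 and 5.91 FPKM in Q808-1 and Q808-2. Its correlation over the 8 libraries was 0.80 with *Dcx*, 0.70 with *Sox4* and -0.56 with *Sox11*. The pooled differences were small, at -0.06 (SE 0.56) between PTZ and Con. and 0.34 (SE 0.74) between Q808 and PTZ. Within the striatum-poor libraries both PTZ libraries lay below both Con. libraries, with a difference of -0.66 (SE 0.30). Of the other neurogenesis genes tested, 38 of 53 were also apart there. Without the share over all genes, nothing is read from that separation. The single library Q808-2 was above PTZ by 1.67 (SE 0.37) and above Con. by 1.02 (SE 0.37) there, whereas in the striatum-rich libraries Q808-1 was below PTZ-3, with a difference of -1.66. The values rested on 31 to 119 fragments.

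*Neurod1* (GeneID 29458), whose product acts in maturing and adult granule neurons, differed most between the striatum-poor and the striatum-rich libraries. It was at 15.3 and 15.6 FPKM in Con.-1 and Con.-2, at 7.81 and 6.67 FPKM in PTZ-1 and PTZ-2, and at 11.3 FPKM in Q808-2. In the striatum-rich libraries it was at 0.311 FPKM in Con.-3, 2.44 FPKM in PTZ-3 and 0.222 FPKM in Q808-1. The pooled differences were 0.15 (SE 1.38) between PTZ and Con. and -1.42 (SE 1.43) between Q808 and PTZ, no larger than their errors. Without Q808-1 the latter became 1.15, and without Q808-2 it became -4.00. Within the striatum-poor libraries PTZ lay below Con. with a log2 change of -1.09 (SE 0.13), and Q808-2 lay between them, above PTZ by 0.64 (SE 0.16) and below Con. with a log2 change of -0.45 (SE 0.16). The counting intervals of PTZ-1 and PTZ-2, 6.81 to 8.92 and 5.76 to 7.68 FPKM, did not reach those of Con.-1, Con.-2 or Q808-2.

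*Draxin* (GeneID 691317) showed no order by group. It was at 0.631, 0.590 and 0.883 FPKM in Con.-1 to Con.-3, at 0.421, 1.10 and 0.533 FPKM in PTZ-1 to PTZ-3, and at 0.808 and 0.439 FPKM in Q808-1 and Q808-2. The lowest and the highest library were PTZ-1 and PTZ-2, from the same group and both striatum-poor. With 13 to 35 fragments a library, a difference of less than the counting intervals, such as 0.224 to 0.720 FPKM in PTZ-1, was not detectable. None of its 3 pooled group differences, of -0.11, -0.07 and -0.18, was larger than its SE.

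**Figure D2:**
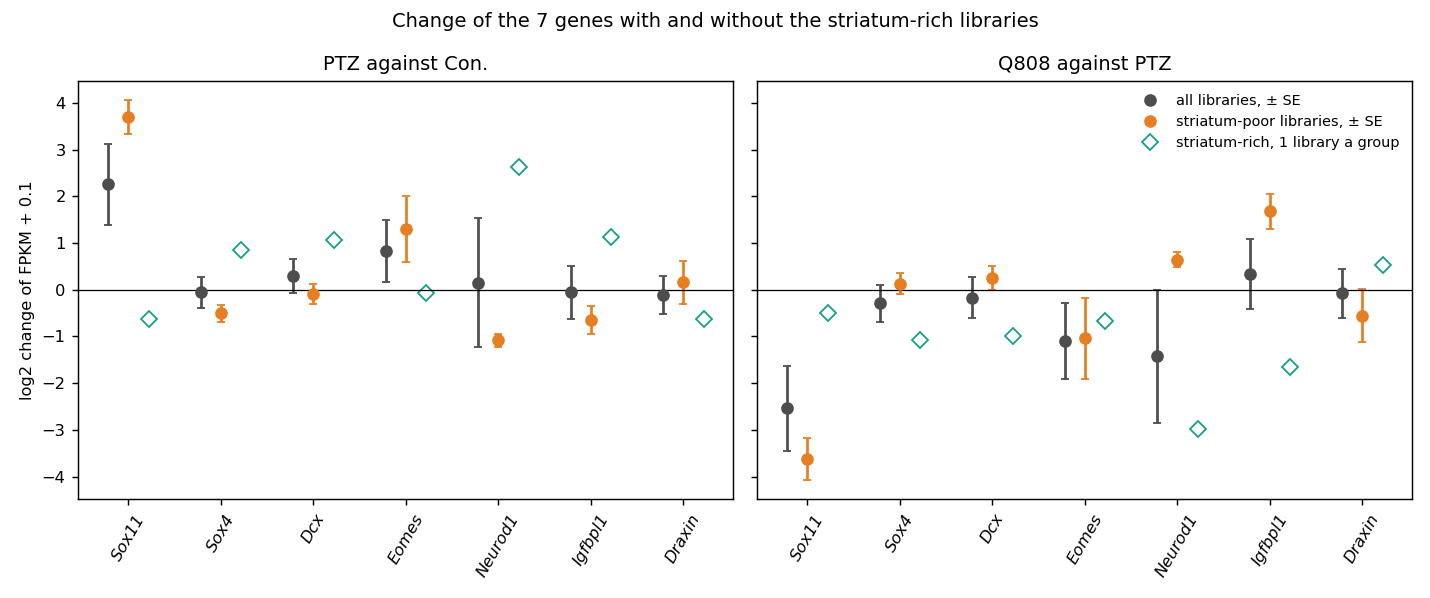
Log2 change of FPKM + 0.1 of the 7 genes between PTZ and Con. (left) and between Q808 and PTZ (right), over all libraries (grey, ± SE from limma), over the striatum-poor libraries (orange, ± SE) and between the single striatum-rich libraries (open diamonds, no error). *Sox11* was at 2.25, 3.69 and -0.62 for PTZ against Con., and *Neurod1* at 0.15, -1.09 and 2.63.

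Levels of different genes can be set side by side because FPKM is per length. In the striatum-poor libraries the mean level was 11.3 ± 4.12 FPKM for *Neurod1*, 7.81 ± 9.21 for *Sox11*, 4.90 ± 0.946 for *Sox4*, 3.08 ± 1.75 for *Igfbpl1*, 2.80 ± 0.306 for *Dcx*, 0.637 ± 0.277 for *Draxin* and 0.231 ± 0.278 for *Eomes* (SD, n = 5 each, over all 3 groups). The *Sox11* mean covers groups with means of 1.31 and 17.6 FPKM, and it differed from the mean of each of the other 6 genes by less than its own SD. The means of *Igfbpl1* and *Dcx*, neighbours in this order, also differed by less than the larger SD of the pair. In PTZ-1 and PTZ-2 *Sox11* was the highest of the 7 genes, and in Con.-1 and Con.-2 *Neurod1* was. *Sox11* and *Neurod1* had the widest ranges over the 8 libraries among the 6 genes above 0 in every library, from the lowest to the highest by 24.0-fold and 70.1-fold, against 2.39-fold to 4.99-fold for *Sox4*, *Dcx*, *Igfbpl1* and *Draxin*.

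A gene counted as called where limma gave p under 0.05 before adjustment and the groups differed over 1.5-fold. For PTZ against Con. 1 of the 7 genes was called, *Sox11*, while 2.53% of all 15593 genes tested were called. None of the 7 had groups that did not overlap, as 9.15% of all genes had. For Q808 against PTZ *Sox11* was the 1 gene called, with 1.92% called among all genes, and the 1 gene whose groups did not overlap, against 15.6% of all genes. For Q808 against Con. none of the 7 was called, with 3.46% among all genes, and *Sox4* and *Dcx* had groups that did not overlap, as 20% of all genes had. Since the genes were chosen with these comparisons known, nothing is read from these counts. After Benjamini-Hochberg adjustment over all genes the smallest p-values that limma gave for the 7 were 0.999, 0.952 and 0.901 in the 3 comparisons. The *Sox11* call for PTZ against Con. was lost when Con.-1, Con.-2, PTZ-1 or PTZ-2 was left out in turn, and that for Q808 against PTZ when PTZ-1, PTZ-2, Q808-1 or Q808-2 was. Without Con.-3 or PTZ-3 the count for PTZ against Con. was 2, with *Neurod1* or *Igfbpl1* added, and without Q808-1 the count for Q808 against Con. was 1.

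Within the striatum-poor libraries *Sox11* and *Neurod1* were called for PTZ against Con., in opposite directions, where 9.82% of all genes were called, and both were called with Con.-1, Con.-2, PTZ-1 or PTZ-2 left out. In a fit with a replicate block, the count was 4, with *Eomes* and *Igfbpl1* besides. For Q808-2 against PTZ 3 were called, *Sox11* lower and *Neurod1* and *Igfbpl1* higher, where 10.4% of all genes were called. For Q808-2 against Con. *Igfbpl1* was called, where 4.53% of all genes were called, and it was not called without Con.-2. The comparisons share libraries, and those with Q808 rest on 1 Q808 library that was assumed to vary like the others. The median log2 change over all genes was -0.11 between PTZ and Con. and 0.16 between Q808-2 and PTZ in these libraries. Relative to it, the *Neurod1* difference for Q808-2 against PTZ was 0.46 after quantile normalization or median ratio scaling and was then not called, nor was it without PTZ-2. It was also not called with a pseudocount of 1 or at the 2-fold threshold. In the same comparison *Sox4* turned from 0.13 to -0.14 and *Dcx* from 0.26 to -0.08 with quantile normalization.

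Other genes of the striatum-poor libraries moved beside these. A list of 7 immediate early genes, which neurons transcribe within minutes of strong activity, had its highest means in PTZ-2 and PTZ-1, at 6.88 and 5.34 on the log2(FPKM + 0.1) scale, against 3.28 to 4.92 in the other 6 libraries. For PTZ against Con. all 7 rose and 6 of them were called, such as *Arc* by 3.13 (limma adjusted p = 0.00608) and *Fosb* by 5.36 (limma adjusted p = 0.0389). For Q808-2 against PTZ all 7 had lower values. The order within the PTZ pair was opposite to that of *Sox11*, with *Fos* at 31.7 FPKM in PTZ-1 and 150.1 FPKM in PTZ-2. The part of acute activity in the *Sox11* values was not tested.

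The mean of the dentate granule cell list was also lower in PTZ-1 and PTZ-2, at 3.42 and 3.47, than in Con.-1 and Con.-2, at 3.96 and 3.93, and Q808-2 was at 3.68. The members did not all share this order, since *C1ql2* was at 79.5 and 82.1 FPKM in Con.-1 and Con.-2, 82.5 and 96.7 FPKM in PTZ-1 and PTZ-2 and 50.6 FPKM in Q808-2. In that list *Plk5* and *Stxbp6* were called lower for PTZ against Con. and the other 4 of 6 were not, among them *Prox1*, the factor that specifies granule cell identity, at 15.9 and 16.6 FPKM in Con.-1 and Con.-2 and 12.2 and 14.7 FPKM in PTZ-1 and PTZ-2. In the striatum-rich libraries the granule list means were 2.26 to 2.49, beside *Neurod1* at 0.222 to 2.44 FPKM. The part of granule cell content in the *Neurod1* values was not tested.

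All 6 choroid plexus markers were called lower for PTZ against Con. and higher for Q808-2 against PTZ and against Con. in the striatum-poor libraries. *Ttr*, the thyroxine carrier that marks choroid plexus epithelium, was at 2495 and 2462 FPKM in Con.-1 and Con.-2, at 399 and 271 FPKM in PTZ-1 and PTZ-2 and at 6301 FPKM in Q808-2. *Igfbpl1* had the same order of groups in these 5 libraries. In PTZ-3, where *Igfbpl1* was highest, the choroid plexus list mean was 2.88, below those of Con.-1, Con.-2 and Q808-2 at 4.32 to 6.02. It was above those of the other striatum-rich libraries, at 0.673 in Con.-3 and 1.41 in Q808-1, where *Igfbpl1* was at 3.31 and 2.26 FPKM. The part of choroid plexus tissue in the *Igfbpl1* values was not tested.

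PTZ-3, where *Dcx*, *Sox4* and *Igfbpl1* were highest, also had the highest mean of 6 genes of subventricular zone neuroblasts, a migrating population next to the striatum, at 3.04, followed by Con.-3 at 2.80 and Q808-1 at 1.76. The other 5 libraries were at 1.00 to 1.37. In that list *Dlx1* was at 12.2 FPKM and *Sp8* at 2.82 FPKM in PTZ-3, against 4.88 to 6.40 and 0.356 to 0.926 FPKM in the other 7 libraries. Of the other 4, *Dlx2* was also highest in PTZ-3, while *Dlx5*, *Dlx6* and *Sp9* were highest in Con.-3, at 17.9, 17.2 and 12.4 FPKM against 13.7, 9.55 and 10.03 FPKM in PTZ-3. Con.-3 had the higher striatum list mean of 7.35, against 6.20 in PTZ-3, and its *Dcx* level of 2.90 FPKM was within the range of the striatum-poor libraries. The part of subventricular zone cells in the *Dcx*, *Sox4* and *Igfbpl1* values was not tested.

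**Figure D3:**
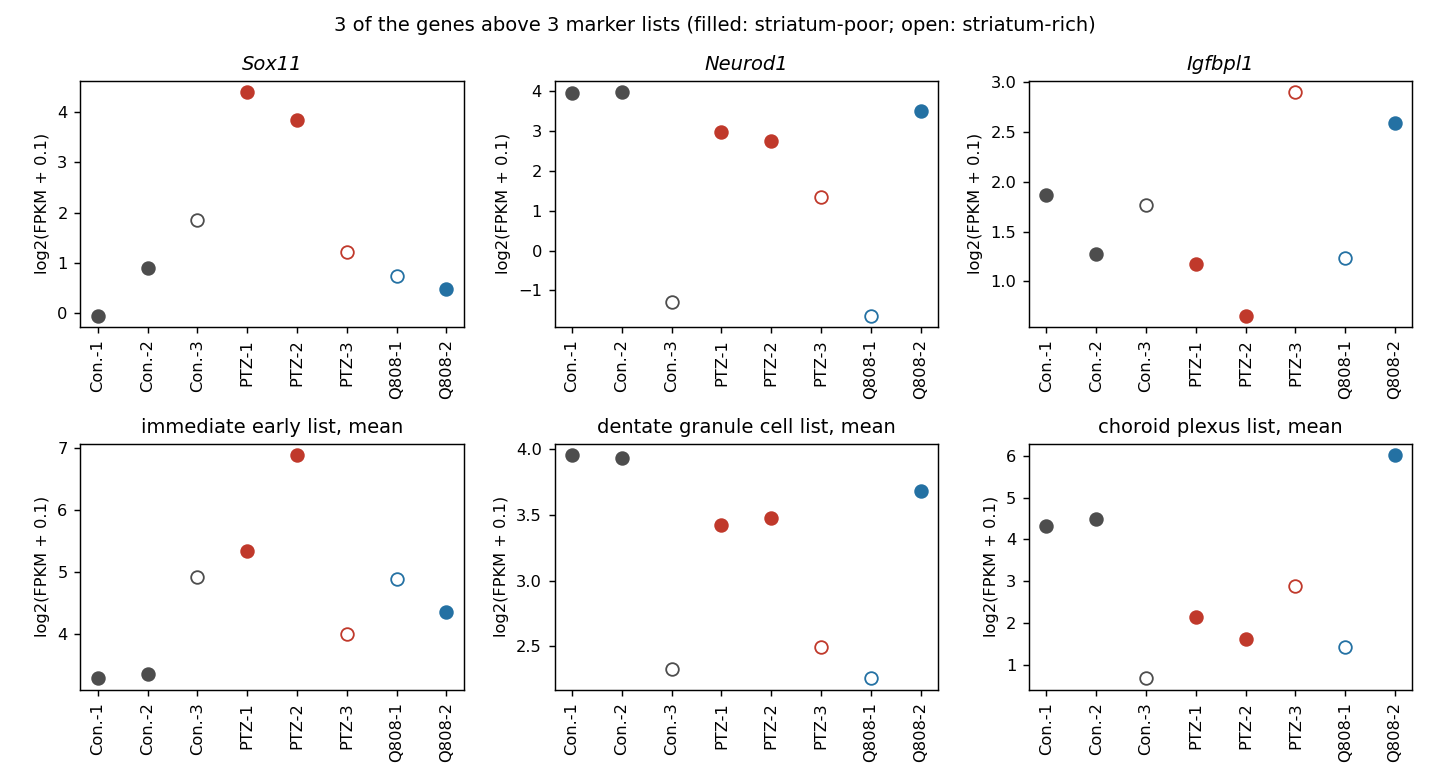
*Sox11*, *Neurod1* and *Igfbpl1* in the upper row and the mean of the immediate early, dentate granule cell and choroid plexus lists in the lower row, as log2(FPKM + 0.1) per library, with points filled for striatum-poor and open for striatum-rich libraries. The immediate early mean was highest in PTZ-2 at 6.88, the granule cell mean was lowest in Q808-1 at 2.26, and the choroid plexus mean was highest in Q808-2 at 6.02.

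Other genes of the neurogenic sequence were followed in a list of 53 tested genes, from stem cells to axon guidance, that holds none of the 7. In the pooled comparisons 0 of 53 were called for PTZ against Con., beside 2.53% of all genes. Q808 against PTZ also gave 0, beside 1.92% of all genes. With so few called among all genes, nothing is read from these counts of 0. Without the 1.5-fold cut, limma gave an unadjusted p under 0.05 for 589 and 341 of all genes and an adjusted p under 0.05 for 0 in both comparisons. In a fit with a replicate block, 1 of the 53 was called for PTZ against Con., the division marker *Mki67*. For Q808 against Con. 5 of 53, or 9.43%, were called, beside 3.46% of all genes. *Hopx*, a marker of quiescent stem cells and astrocytes, was higher in Q808, by 0.75. *Hes5* (-0.72) and *Sox9* (-0.67), both of radial glia and astrocytes, *Insm1* (-0.96), a factor of neuronal progenitors, and *Dcc* (-0.71), the netrin receptor that also binds draxin, were lower. The limma adjusted p was 0.901 for each of these 5, and the count was 0 without Con.-1, 1 without Con.-2 and 3 without Q808-1. Without PTZ-3 the counts for PTZ against Con. or Q808 were 5 each. There 1135 and 1569 of all genes were called, against 395 and 300 with PTZ-3. Without Con.-3 the count for PTZ against Con. was 2, where 639 of all genes were called.

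Within the striatum-poor libraries 9 of 53 genes, or 17.0%, were called for PTZ against Con., 5 higher and 4 lower, beside 9.82% of all genes, and 14 were called without Con.-2. The median log2 change of the list was 0.05, and that of all genes -0.11. Of 10 progenitor and neuronal fate factors 2 rose and 2 fell. *Bhlhe22*, a factor of excitatory neurons, went from 89.1 and 77.7 FPKM in Con.-1 and Con.-2 to 40.1 and 40.1 FPKM in PTZ-1 and PTZ-2, a log2 change of -1.05 (SE 0.10, limma adjusted p = 0.0250), close to the -1.09 of *Neurod1*. *Insm1* went from 3.50 and 3.37 to 1.19 and 0.984 FPKM, a log2 change of -1.58 (SE 0.23, limma adjusted p = 0.0564). *Neurog2*, a proneural factor of intermediate progenitors, rose by 1.08, and *Tbr1*, a factor of postmitotic glutamatergic neurons, rose by 0.77. In the striatum-rich pair each of these factors went the opposite way, with 1 library a group and no test. From Con.-3 to PTZ-3 *Bhlhe22* went from 2.69 to 8.17 FPKM and *Insm1* from 1.98 to 2.92 FPKM. *Neurog2* went from 0.153 to 0 FPKM and *Tbr1* from 10.8 to 7.08 FPKM.

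Among the stem cell and radial glia genes *Hes5*, a Notch target that represses proneural genes, fell, with a log2 change of -1.07. *Mki67* was the 1 of 10 cell division genes called, at 0.0689 and 0.149 FPKM in Con.-1 and Con.-2 and 0.328 and 0.887 FPKM in PTZ-1 and PTZ-2. *Top2a* and *Cdk1*, which mark the same dividing cells, were at 0.771 and 0.691 FPKM in PTZ-1 and at 0.0891 and 0.0962 FPKM in PTZ-2, which was the lowest of the 8 libraries for both and the highest for *Mki67*. Of 16 cytoskeleton and adhesion genes of immature neurons *Dclk1*, a relative of *Dcx* that mature neurons also express, was called, higher by 0.80. *Tubb3*, *Gap43* and the other 13 were not called. Of 8 genes of draxin and netrin signalling *Unc5d* was called, with a log2 change of -0.78. *Bhlhe22* was the 1 of these 9 genes with a limma adjusted p under 0.05. From Con.-3 to PTZ-3 *Hes5* went from 10.1 to 25.4 FPKM, *Unc5d* from 1.84 to 2.63 FPKM and *Dclk1* from 69.6 to 55.7 FPKM. These were opposite to their changes in the striatum-poor libraries. *Mki67*, from 0.531 to 0.703 FPKM, went the same way as there.

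**Figure D4:**
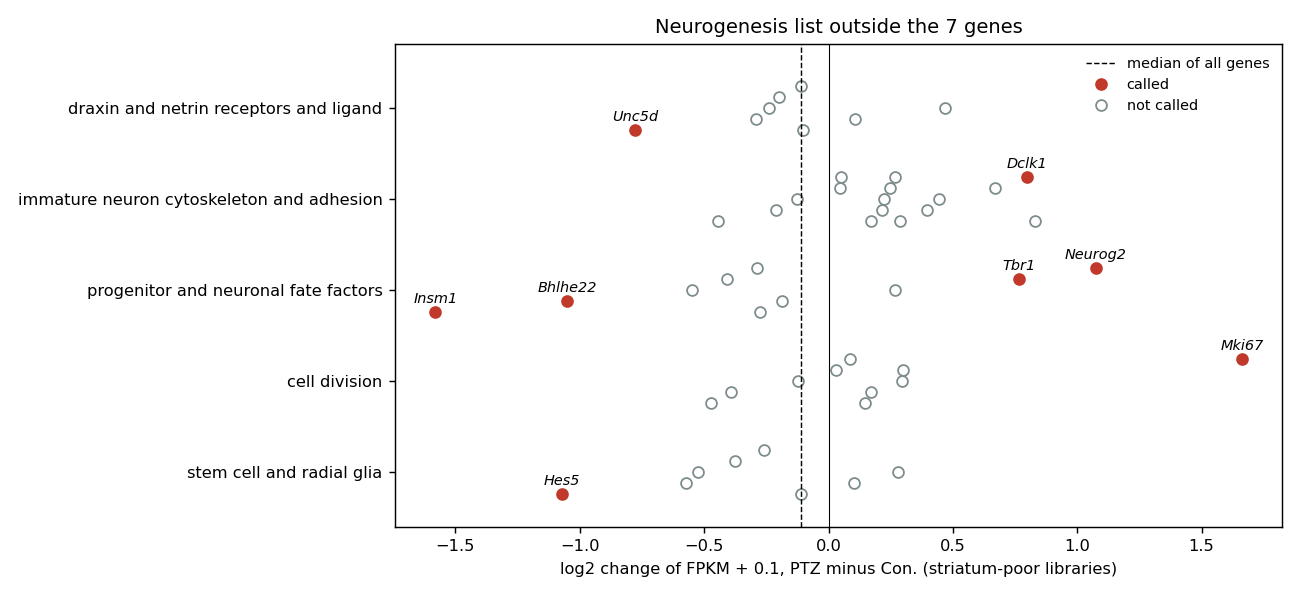
Log2 change of FPKM + 0.1 for PTZ against Con. in the striatum-poor libraries, for genes of the neurogenesis list in 5 sublists. Red points are genes called, from *Insm1* at -1.58 to *Mki67* at 1.66, and the dashed line is the median of all genes, -0.11.

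For Q808-2 against PTZ in the same libraries 4 of 53 genes, or 7.55%, were called, beside 10.4% of all genes. Among them *Mki67* (-1.85) and *Dclk1* (-0.67) were lower and *Unc5d* (0.59) was higher, with limma adjusted p-values of 0.240 to 0.293, and the count was 2 without PTZ-2. For Q808-2 against Con. 3 of 53, or 5.66%, were called, beside 4.53% of all genes. These were *Hopx* (0.72), *Sox9* (-0.87) and *Insm1* (-1.02), with limma adjusted p-values of 0.464 to 0.663, and the count was 5 without Con.-2, PTZ-1 or PTZ-2.

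The genes whose log2(FPKM + 0.1) was most like that of *Sox11* over the 8 libraries, among 12382 genes that had a symbol and whose mean FPKM was 1 or more, were *Jarid2*, *Ccnf* and *Ubtf*, with Pearson correlations of 0.97, 0.97 and 0.96. *Jarid2*, a component of the Polycomb repressive complex, was at 12.8 and 12.5 FPKM in PTZ-1 and PTZ-2 and at 2.58 to 4.57 FPKM in the other 6 libraries. *Ccnf*, a cyclin, was at 6.43 and 6.78 FPKM in PTZ-1 and PTZ-2 and at 1.27 to 1.84 FPKM elsewhere. For *Dcx* the closest genes were *Ncl*, *Zfp51* and *Pym1*, with correlations of 0.98, 0.97 and 0.96. *Ncl*, the abundant nucleolar protein nucleolin, ranged over the libraries from 140.3 FPKM in PTZ-2 to 165.5 FPKM in PTZ-3, so that its agreement with *Dcx* rests on a narrow range and on PTZ-3. None of these correlations carries a test.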

How the data were processed

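RNA sequencing of hippocampus was measured in 8 libraries, 3 Con., 3 PTZ and 2 Q808, each from 1 rat. The authors trimmed reads with Trimmomatic and deposited FPKM per gene, which they computed with Cufflinks. The submitters' processing notes also name HISAT2, Bowtie2, StringTie, SAMtools, HTSeq and DESeq. The aligner's role, the versions and the genome build are not given in the sources used here. Read counts of the study were not used here.

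Genes were named by GeneID from the RefSeq table of GRCr8. Low FPKM of a gene were whole multiples of 1 step, which gave the relative depth of the libraries and, within a tolerance of 0.03, whole fragments in all 8 libraries for 15423 of 15593 tested genes (98.9%). These are the smallest whole numbers that give the values. Counting intervals are exact Poisson intervals at 95%, and they and the limit of 3 fragments cover counting error only. Genes whose mean FPKM reached 0.1 were tested on log2(FPKM + 0.1) by limma 3.58.1 in R 4.3.3, by empirical Bayes with a trend, each pooled comparison on its own 2 groups. A fold change on this scale understates the change of low genes. The 5 striatum-poor libraries were fitted together. A gene was called at p under 0.05 and over 1.5-fold. Figures and counts used Python 3.11.15, pandas 2.3.3, NumPy 2.4.6, SciPy 1.17.1 and Matplotlib 3.10.9.

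The 7 genes, the neurogenesis list, the marker lists and the division by striatum markers were chosen with earlier results of these data known. Named genes were the 7, the genes of each list called with the smallest p-values (at most 4 per list), markers set beside a member, and the 3 genes most like *Sox11* and *Dcx*. *Top2a*, *Cdk1*, *Tubb3* and *Gap43* were named after their values were seen. A gene of the neurogenesis list enters its counts and is not reported here. The deviations from group means of libraries with the same replicate number correlated at 0.21, 0.30 and 0.42 between Con. and PTZ. The number was tried as a block in an alternative fit, while the main fits used no pairing. Con.-2 and PTZ-1, which differ in number, correlated at 0.32. No label ties numbers to a shared day or litter, and number 3 is the striatum-rich library in both groups. The fit was tested on simulated data. Alternatives were other pseudocounts, filters, scalings, thresholds, fits, a striatum covariate, the replicate block and each library left out. The voom fit on recovered fragments was added after the data were seen.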

Additional observations from a re-analysis of the deposited data

Results flagged for a closer look

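For several of the genes every striatum-poor pair of libraries moved one way and the striatum-rich pair moved the opposite way. The striatum-rich side is 1 library a group, and the difference between the sets was not tested for any of these genes. The values are the log2 change in the striatum-poor libraries minus that in the striatum-rich libraries. For PTZ against Con. this difference was 4.32 for *Sox11*, -1.35 for *Sox4*, -3.71 for *Neurod1* and -1.79 for *Igfbpl1*. For Q808 against PTZ, where the striatum-poor side rests on the single library Q808-2, it was 1.25 for *Dcx*, 3.62 for *Neurod1* and 3.34 for *Igfbpl1*. For Q808 against Con. it was 1.55 for *Igfbpl1*. Several of these values share PTZ-3, in which *Sox4*, *Dcx* and *Igfbpl1* were highest.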

How the results depend on the processing

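Of the recomputed log2 changes of the 7 genes 632 stayed within the spread between libraries, and 21 moved beyond it. The 2-fold threshold, the gene filters, the fit without the trend and that of all 3 groups cannot alter a log2 change, and they enter the 632. The spread was also wide, so that a change of sign could count as staying within it. For *Neurod1*, PTZ against Con. went from 0.15 to -1.59 without Con.-3, where the spread was an SD of 2.23. The 632 is therefore no measure of robustness. The number of the 7 genes called went from 1 to 0, for PTZ compared with either Con. or Q808, with all genes above 0 and with voom weights, and from 1 to 0 for Q808-2 against Con. in the striatum-poor libraries with all genes above 0 and without the trend. With the replicate block it was 4 for PTZ against Con. in the striatum-poor libraries, where it was 2, and the block changed no other count of the 7 genes by over 1.5 times. Leaving out 1 library gave 0 to 2 for PTZ against Con., 0 to 1 for Q808 against PTZ, 0 to 1 for Q808 against Con., and in the striatum-poor libraries 2 to 3, 3 to 4 and 0 to 1.

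For the neurogenesis list, the 0 called for PTZ against Con. became 1 with the replicate block, the striatum covariate or voom. The 0 for Q808 against PTZ became 1 with quantile normalization, the covariate or voom. It became 5 with the replicate block, although Q808 libraries share only a number with the others. No Q808 library has number 3, so that PTZ-3 had no part in the blocked difference. The log2 changes were those without PTZ-3, such as -3.50 for *Sox11* in both. Among all genes 300 were called in the main fit, 1894 with the block and 1569 without PTZ-3. For PTZ against Con. in the striatum-poor libraries the number was 1532, and 1534 without Con.-2. The 5 for Q808 against Con. became 0 at 2-fold, 2 with all groups in 1 fit and 3 with the covariate. In the striatum-poor libraries the 4 for Q808-2 against PTZ became 2 with a pseudocount of 1 or at 2-fold and 1 with all genes above 0, and the 3 for Q808-2 against Con. became 5 without the trend, 6 with quantile normalization and 1 at 2-fold. Leaving out 1 library gave 0 to 5, 0 to 7 and 0 to 5 in the pooled comparisons and, in the striatum-poor libraries, 6 to 14 (14 without Con.-2), 2 to 6 and 3 to 5. The causes were not tested.

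Of all genes called for Q808 against PTZ, 212 were higher and 88 lower, and 132 and 140 with quantile normalization. In the striatum-poor libraries 637 were higher and 895 lower for PTZ against Con., and 780 and 530 with quantile normalization. Depth limits *Eomes* and *Draxin*, which rested on 0 to 46 and 13 to 35 fragments a library.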
